A study of Homo sapiens with 4 samples.

Results

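The ATF4 amino acid and ER stress response was examined here as a list of 41 named genes, defined by symbol from their known place in the pathway, with earlier results of these data known. All 41 had a row in the table of 37515 genes, and 40 of them were among the 14820 genes with enough reads to test. The missing member, NUPR1, a stress-induced chromatin protein, had 1 and 0 reads in the unstimulated libraries and 1 and 1 reads in the IFNγ libraries. RNA was sequenced from Caco-2 cells, a human colorectal carcinoma line that takes on features of small intestinal enterocytes when it is grown to confluence. All cultures grew in transwell inserts in MEM with regular changes of medium, and after 15 days the basal side received either IFNγ at 60 ng/ml or medium. All 4 libraries are labelled as wild type (WT), of which 2 were unstimulated at 0 h and 2 were stimulated with IFNγ for 3 h. No source used here states that replicates came from separate cultures, so p-values measure the spread between these libraries, which may be technical. Since the unstimulated libraries were taken at 0 h, IFNγ and the 3 h that passed cannot be told apart.

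ATF4 is the transcription factor of the integrated stress response. Sensor kinases for lack of amino acids, misfolded protein in the ER and other stresses phosphorylate the initiation factor eIF2, which lowers general protein synthesis while ATF4 mRNA is translated better. ATF4, often paired with a C/EBP protein, then switches on genes for amino acid synthesis, transporters that bring amino acids into the cell, and feedback regulators. The ER has its own sensors as well, ATF6 and the kinase IRE1 (ERN1), which splices XBP1 mRNA, and together they raise chaperones and the machinery that removes misfolded proteins. Enterocytes pass large amounts of amino acids from the gut lumen and secrete much protein. A change in ATF4 protein or in XBP1 splicing would not show in gene counts.

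The DNA element that ATF4 and C/EBP proteins share, the C/EBP-ATF response element, is short enough to be read from promoter sequence. The letters TGATGNAA were searched on both strands from 250 bases before to 50 bases after each RefSeq transcription start (GRCh38.p14), and 36 of the 41 genes had an entry. SHMT2, SLC7A11, PYCR1, NUPR1 and PSPH had none. The element was found for 10 of the 36 genes (27.8%), against 2.80% of the 10505 tested genes with a promoter and 4.46% of all 27305 genes with one. The genes were listed for their known place in this pathway, so a higher share here is no independent result. The same holds for the elements below. A match of this kind is a description of the letters and not of a bound site. The windows below hold matches in capitals, 5′ to 3′ along the gene, where TTGCATCA and TTACATCA are the element read from the other strand. The first 4 belong to genes whose transcripts rose with IFNγ and the next 4 to genes that did not pass the test, to show that the element was present in both.
CHAC1 (chr15:40953252-40953279, plus strand): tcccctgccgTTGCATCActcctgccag
SLC1A5 (chr19:46784894-46784921, minus strand): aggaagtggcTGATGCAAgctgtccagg
SLC7A1 (chr13:29595664-29595691, minus strand): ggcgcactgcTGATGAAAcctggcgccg
SLC3A2 (chr11:62881726-62881748, plus strand): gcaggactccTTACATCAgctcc
ASNS (chr7:97872459-97872486, minus strand): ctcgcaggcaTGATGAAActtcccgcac
HERPUD1 (chr16:56931956-56931983, plus strand): acgcggcgggTTGCATCAgcccgtgccc
PPP1R15B (chr1:204412027-204412054, minus strand): ccgccccggcTGATGCAAcctcacgctg
CEBPG (chr19:33374061-33374088, plus strand): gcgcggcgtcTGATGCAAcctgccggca

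The remaining matches were in SLC1A4 and SLC38A1. The element lay at 1 of 3 listed starts for SLC1A5 and SLC3A2, and at 1 of 2 for ASNS, CEBPG, SLC1A4 and SLC38A1. Of the 10 genes with the element, 4 rose, 0 fell and 6 did not pass the test by edgeR, while 9.02% of all tested genes rose and 11.0% fell. The windows of the other genes that passed, SLC7A5, ATF5, CEBPB, XBP1, DDIT4, STC2, SLC38A2 and SEL1L, did not hold these letters. A longer element, CCAAT and CCACG with 9 bases between them, is known from promoters that the ER stress factors ATF6 and XBP1 act on. It was found in 2 of the 36 genes (5.56%), XBP1 and the ER chaperone gene HSP90B1, against 0.162% of the tested genes. XBP1 rose and HSP90B1 did not pass the test, and HSP90B1 carried the element at 2 places, while that of XBP1 lay at 1 of its 2 listed starts. The short letters GCCACGT, the ACGT core that the same factors and others read, were in 4 of the 36 genes (11.1%), against 5.60% of the tested genes, namely SLC1A4, EIF2AK3, ALDH18A1 and HERPUD1. None of those 4 overlapped a longer element printed here.
XBP1 (chr22:28800598-28800626, minus strand): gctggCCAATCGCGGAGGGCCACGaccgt
HSP90B1, upstream copy (chr12:103930211-103930239, plus strand): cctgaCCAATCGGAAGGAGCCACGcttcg
HSP90B1, downstream copy (chr12:103930316-103930344, plus strand): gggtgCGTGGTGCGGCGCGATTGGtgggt

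The libraries held 7171455 and 9990952 counted reads in the unstimulated group and 7529914 and 10365346 in the IFNγ group, with replicate 1 the deeper of each. The 50 highest genes took between 12.1% and 13.6% of reads. The labels were checked with IRF1, a first target of IFNγ signaling, which stood at 19.3 and 20.2 CPM without IFNγ and at 1201 and 1085 CPM with it. Levels are given as CPM, read counts relative to library size after scaling by edgeR's TMM factors. The 10 enterocyte-like markers were all expressed, with a summed level of 7110 and 7796 CPM in unstimulated and 8740 and 9108 CPM in IFNγ libraries. Of these, CDX2, KRT8, KRT18 and ALPI rose and SI fell. The 4 leukocyte markers summed to between 5.84 and 11.9 CPM, with PTPRC at 0 in 3 libraries. Most of that sum was CD14, at 3.51 and 4.76 CPM without IFNγ and 5.74 and 8.87 CPM with it. The endothelial markers with a row summed to between 1.26 and 2.32 CPM. The 4 fibroblast markers summed to between 100.2 and 192 CPM, most of it COL1A1, while COL1A2 and DCN had at most 1 read. PDGFRA, the remaining fibroblast marker, had 12.9 and 10.6 CPM without IFNγ and 7.68 and 11.6 CPM with it.

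The module as a whole did not move in one direction. At an adjusted p under 0.05 (edgeR), 8 of the 40 tested genes rose (20.0%) against 9.02% of all tested genes, and 4 fell (10%) against 11.0%. With the added demand of a log2 fold change above 1 in size, 2 were higher (5.0%), SLC7A5 and CHAC1, against 2.88% of all genes. By the same rule 3 were lower (7.5%), DDIT4, STC2 and SLC38A2, against 4.40%. At the p threshold alone the share that rose was above that of all genes and the share that fell was close to it. The median log2 fold change over the 40 genes was 0.03, beside -0.01 for all genes tested. Both IFNγ libraries lay above both unstimulated libraries for 15 genes (37.5%, against 31.6% of all genes) and below them for 11 (27.5%, against 30.8%), and the groups overlapped for the other 14. The 28 genes that did not pass had log2 fold changes between -0.39 and 0.55. The amino acid transporters held 4 of the 8 genes that rose, and the synthesis enzymes held none.

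**Figure D1:**
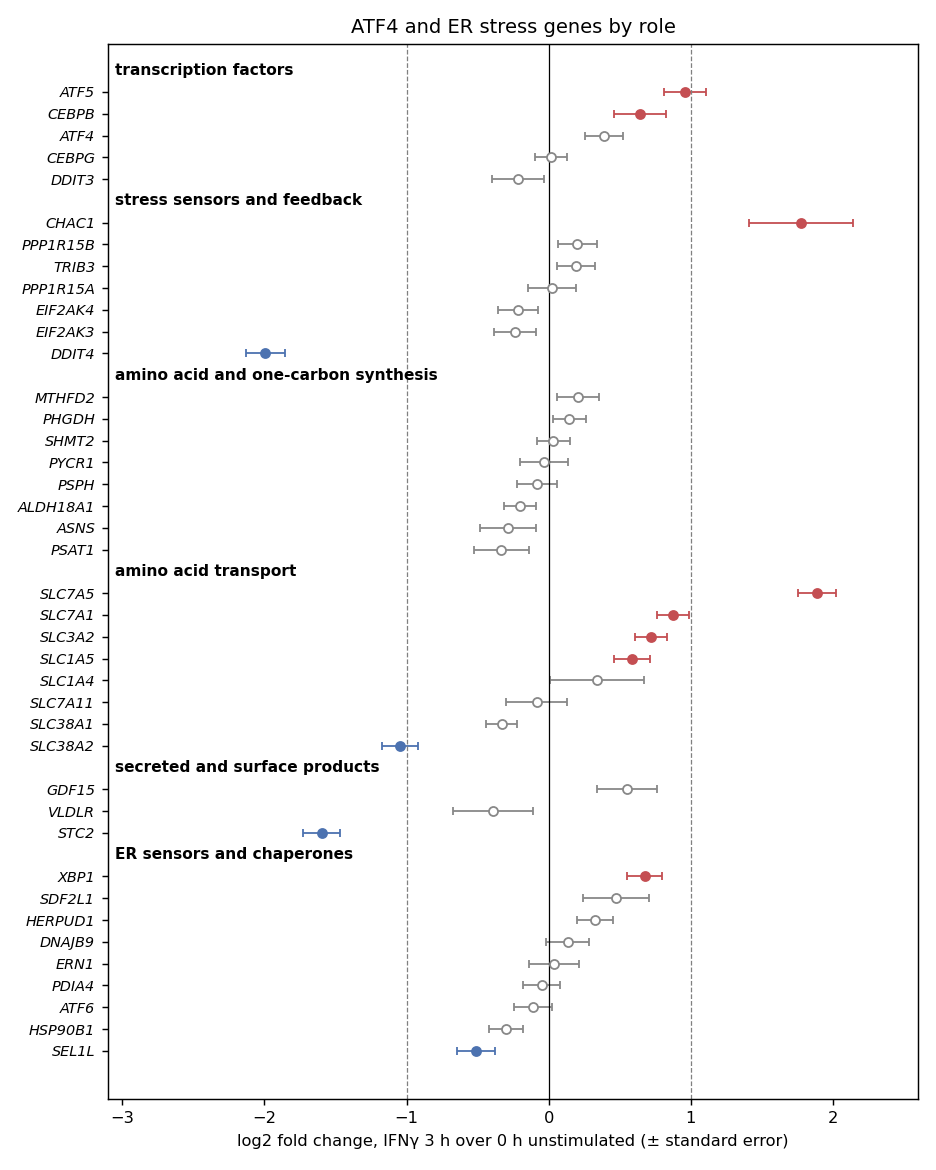
Log2 fold change (IFNγ 3 h against unstimulated, x axis) of the 40 tested ATF4 and ER stress genes, grouped by role, with bars of 1 standard error from edgeR, filled points for an adjusted p under 0.05 and dashed lines at 1 and -1. SLC7A5 (1.89) and CHAC1 (1.78) stand farthest to the right and DDIT4 (-1.99) and STC2 (-1.60) farthest to the left, while the synthesis enzymes gather around 0.

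The largest fold rise of the 40 genes was in an amino acid exchanger. SLC7A5 (LAT1), the light chain of the transporter that brings leucine and other large neutral amino acids into the cell, lies at chr16:87863629-87903113 on the minus strand (GRCh37). It stood at 103 and 95.5 CPM in the unstimulated libraries and at 335 and 398 CPM in the IFNγ libraries, so that the lowest IFNγ library was far above the highest control. The means were 99.1 ± 5.07 and 367 ± 44.3 CPM (SD, n = 2 each), a 3.70-fold rise with a log2 fold change of 1.89 (SE 0.13, adjusted p = 0.000502, edgeR). Its heavy chain SLC3A2 (CD98), which carries SLC7A5 and SLC7A11 to the plasma membrane, rose less. SLC3A2 had 223 and 233 CPM without and 360 and 390 CPM with IFNγ, a log2 fold change of 0.72 (SE 0.11, adjusted p = 0.0056). The groups did not overlap for either chain. The other light chain of SLC3A2 among the 41 genes is the cystine and glutamate exchanger SLC7A11. It had 10.5 and 14.3 CPM and then 11.4 and 11.9 CPM, which overlapped. Its log2 fold change was -0.08, with a 95% interval from -0.58 to 0.42, and it was 0.65 (adjusted p = 0.0821) with the GC trend removed. With a replicate block added to that fit, SLC7A11 passed as higher (0.66, adjusted p = 0.00558), where 19.8% of all tested genes rose. Here and below, the GC trend stands for the joint trend with transcript GC content and length, described further on.

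Among the other transporters, SLC7A1 (CAT1), which imports arginine and lysine, had 92.4 and 91.3 CPM without IFNγ and 160 and 176 CPM with it. The groups were well apart, and its log2 fold change was 0.87 (SE 0.11, adjusted p = 0.00361). SLC1A5 (ASCT2), the sodium-dependent exchanger of glutamine and other neutral amino acids, had 226 and 249 CPM and then 327 and 385 CPM. It rose by a log2 fold change of 0.59 (SE 0.13, adjusted p = 0.0185), without overlap, but did not pass without IFNγ replicate 2 (adjusted p = 0.0515) or unstimulated replicate 1 (adjusted p = 0.0837). The related exchanger SLC1A4 was low throughout, at 2.53 and 3.64 CPM and then 3.89 and 3.82 CPM, and did not pass (log2 fold change 0.34, adjusted p = 0.503).

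A transporter of small neutral amino acids fell. SLC38A2 (SNAT2), a transporter well known for its induction when amino acids are short, lies at chr12:46751971-46766556 on the minus strand (GRCh37). It had 289 and 333 CPM in unstimulated and 144 and 157 CPM in IFNγ libraries, so both stimulated libraries were far below both controls. The means were 311 ± 31.0 and 151 ± 9.38 CPM (SD, n = 2 each), and the log2 fold change was -1.05 (SE 0.12, adjusted p = 0.00266). Without IFNγ replicate 1 or unstimulated replicate 2 it was -0.99 and -0.93, short of the size limit. With the GC trend removed, the log2 fold change of SLC38A2 was -0.54 (adjusted p = 0.0318), and the part of GC content or length was not tested. Its relative SLC38A1 (SNAT1) had 268 and 295 CPM and then 223 and 224 CPM. Those groups did not overlap, but the difference did not pass (log2 fold change -0.33, adjusted p = 0.0748), and the value was 0.07 with the GC trend removed. Over all 8 transporters, 4 rose, 1 fell and 3 did not pass, with a median log2 fold change of 0.46, and the shares of all tested genes that rose and fell were 9.02% and 11.0%.

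**Figure D2:**
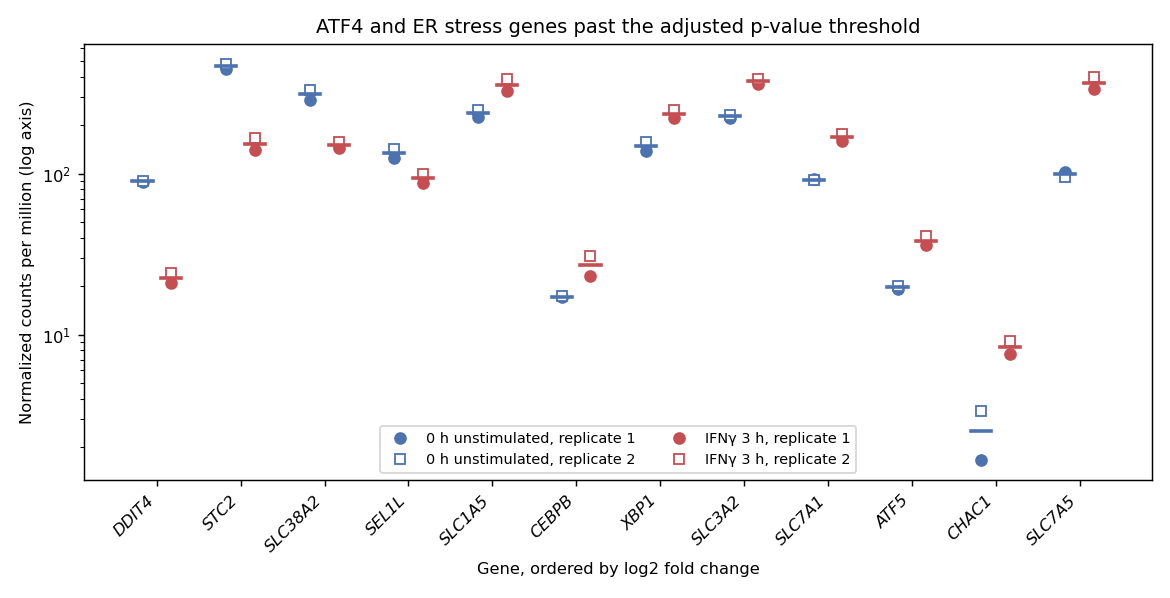
Level in each library (scaled CPM, log axis) of the 12 ATF4 and ER stress genes past an adjusted p of 0.05, with circles for replicate 1, squares for replicate 2 and a line at each group mean (blue unstimulated, red IFNγ). The groups are apart for each gene, from CHAC1, with IFNγ libraries at 7.59 and 9.14 CPM, to STC2, which fell from 448 and 482 CPM to 141 and 167 CPM.

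The enzymes that make amino acids and one-carbon units are textbook ATF4 targets. Of the 8, 0 passed the test in either direction by edgeR, 0 had an unadjusted p under 0.05, and 0 passed by DESeq2. Of all 14820 tested genes, 9.02% rose and 11.0% fell by edgeR, and 5239 had an unadjusted p under 0.05. By DESeq2, 7.04% rose and 9.55% fell. The count of 0 among 8 genes was not tested against these shares. Their log2 fold changes ran from -0.33 to 0.20, with a median of -0.06, and the 95% intervals of all 8 lay between -0.79 and 0.55. ASNS, asparagine synthetase, had 23.2 and 32.4 CPM without IFNγ and 21.3 and 24.2 CPM with it, and the groups overlapped. PSAT1, an enzyme of serine synthesis, had 20.2 and 24.0 CPM and then 15.2 and 19.9 CPM. The 2 groups of PSAT1 were only just apart (log2 fold change -0.33, adjusted p = 0.264). PHGDH, the first enzyme of serine synthesis, had 181 and 195 CPM and then 198 and 217 CPM, with a log2 fold change of 0.15. MTHFD2, a mitochondrial folate enzyme, had the highest value of the group at 0.20. It was 0.52 (adjusted p = 0.0679) with the GC trend removed and passed with a replicate block added to that fit (0.51, adjusted p = 0.000682). PSPH, SHMT2 and PYCR1 were between -0.08 and 0.03, and ALDH18A1, which starts proline synthesis, was at -0.20 and passed as lower with a replicate block (adjusted p = 0.0331). A rise of SLC7A5's size was outside the interval of each.

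Among the transcription factors, ATF5 and CEBPB rose, while ATF4 itself, CEBPG and DDIT3 did not pass. The share that rose was 2 of the 5 tested (40%), against 9.02% of all tested genes. ATF4 mRNA had 211 and 224 CPM without IFNγ and 255 and 315 CPM with it. These groups did not overlap, but the spread of the IFNγ libraries was wide, and the log2 fold change of 0.39 (SE 0.13, 95% interval 0.08 to 0.70) had an adjusted p of 0.0789, which was 0.0299 without IFNγ replicate 1. The value was 0.21 (adjusted p = 0.478) without IFNγ replicate 2, 0.35 (adjusted p = 0.25) without unstimulated replicate 1 and 0.19 (adjusted p = 0.422) with the GC trend removed. ATF5, a relative of ATF4 with the same kind of translational control, had 19.3 and 20.2 CPM and then 35.9 and 40.8 CPM. It was higher in both IFNγ libraries by a log2 fold change of 0.96 (SE 0.15, adjusted p = 0.00591). CEBPB, a partner of ATF4 that also acts in inflammation, had 17.1 and 17.4 CPM and then 23.2 and 30.8 CPM, with a log2 fold change of 0.64 (SE 0.18, adjusted p = 0.048). The rise of CEBPB was near the threshold and did not pass with DESeq2 (adjusted p = 0.0847), with the GC trend removed (adjusted p = 0.202), or without IFNγ replicate 2 (0.244), unstimulated replicate 1 (0.154) or unstimulated replicate 2 (0.0744). CEBPG, a heterodimer partner of ATF4, was at 135 and 147 CPM and then 140 and 146 CPM, with a 95% interval of the log2 fold change from -0.25 to 0.28. With the GC trend removed, CEBPG was at 0.37 (adjusted p = 0.085), and it passed with the replicate block added (adjusted p = 0.00293). DDIT3 (CHOP), which drives death under lasting ER stress, had 20.7 and 23.3 CPM and then 16.6 and 21.4 CPM. Its groups overlapped, and its log2 fold change was -0.21 (95% interval -0.64 to 0.21).

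The feedback genes held both the largest fall and one of the largest rises. DDIT4 (REDD1), an inhibitor of the growth kinase complex mTORC1 that is induced by many stresses, lies at chr10:74033678-74035794 on the plus strand (GRCh37). It had 89.2 and 90.1 CPM in unstimulated and 21.0 and 24.2 CPM in IFNγ libraries. The means of 89.6 ± 0.631 and 22.6 ± 2.22 CPM (SD, n = 2 each) differed 3.98-fold, with a log2 fold change of -1.99 (SE 0.14, adjusted p = 0.000469). CHAC1, an enzyme that breaks down glutathione and is among the most responsive ATF4 targets, lies at chr15:41245160-41248710 on the plus strand (GRCh37). It moved the other way, on few reads, with 17 and 24 reads without IFNγ and 78 and 67 reads with it, or 1.66 and 3.36 CPM and then 7.59 and 9.14 CPM. Its log2 fold change was 1.78 (SE 0.37, adjusted p = 0.0155), with a 95% interval from 0.92 to 2.63. Without unstimulated replicate 1, the lower of the controls, the value was 1.30 and did not pass (adjusted p = 0.053).

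The other feedback genes and the sensors did not pass. Of all 7 sensor and feedback genes, 14.3% rose and 14.3% fell, against 9.02% and 11.0% of all tested genes. TRIB3, a pseudokinase that restrains ATF4, had 123 and 143 CPM and then 141 and 163 CPM, which overlapped. PPP1R15A (GADD34) and PPP1R15B, which guide the phosphatase that reverses eIF2 phosphorylation, had log2 fold changes of 0.02 and 0.20. PPP1R15B was at 0.42 (adjusted p = 0.101) with the GC trend removed, and passed with a replicate block added to that fit (0.40, adjusted p = 0.00439). The eIF2 kinase of the ER, EIF2AK3 (PERK), had 32.0 and 35.6 CPM and then 26.8 and 30.6 CPM. The kinase that senses uncharged tRNA, EIF2AK4 (GCN2), had 36.3 and 41.0 CPM and then 33.8 and 32.5 CPM. Both kinases were lower in both IFNγ libraries, by a log2 fold change of -0.24 for EIF2AK3 (adjusted p = 0.30) and -0.22 for EIF2AK4 (adjusted p = 0.31).

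Of the 3 secreted and surface products, 1 fell (33.3%, against 11.0% of all tested genes) and the others did not pass. STC2 (stanniocalcin 2), a secreted glycoprotein induced by ER stress, lies at chr5:172741726-172755450 on the minus strand (GRCh37). It had 448 and 482 CPM in unstimulated and 141 and 167 CPM in IFNγ libraries. The means of 465 ± 24.0 and 154 ± 18.7 CPM (SD, n = 2 each) differed 3.03-fold, with a log2 fold change of -1.60 (SE 0.13, adjusted p = 0.000837). Both stimulated libraries were far below both controls. GDF15, a secreted stress hormone, had 7.50 and 6.58 CPM and then 10.6 and 10.1 CPM. Its groups did not overlap, and its log2 fold change of 0.55 did not pass (adjusted p = 0.109). The lipoprotein receptor VLDLR was at -0.39 on the log2 scale (adjusted p = 0.362).

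In the ER group, XBP1 rose, SEL1L fell and 7 of the 9 genes did not pass. That is 11.1% in each direction, close to the 9.02% of all tested genes that rose and the 11.0% that fell. XBP1, the factor whose mRNA is spliced by IRE1, lies at chr22:29190543-29196585 on the minus strand (GRCh37). It had 139 and 158 CPM without IFNγ and 223 and 249 CPM with it, and the groups were clearly apart. Its log2 fold change was 0.67 (SE 0.12, adjusted p = 0.0105), and without unstimulated replicate 1 it did not pass (adjusted p = 0.0516). SEL1L, part of the complex that sends misfolded ER proteins for degradation, had 125 and 143 CPM and then 87.5 and 100.3 CPM. Its fall of -0.51 on the log2 scale (SE 0.13, adjusted p = 0.0334) was -0.01 (adjusted p = 0.983) once the GC trend was removed, and it did not pass without IFNγ replicate 1 (0.098) or unstimulated replicate 2 (0.136). The sensors did not pass, with ATF6 at 45.4 and 49.5 CPM and then 45.6 and 41.9 CPM. ERN1 was at 27.0 and 23.3 CPM and then 28.7 and 22.8 CPM, and the groups of both sensors overlapped. The chaperone HSP90B1 (GRP94) had 871 and 1034 CPM and then 774 and 770 CPM. Both of its IFNγ libraries were lower, but the log2 fold change of -0.30 did not pass (adjusted p = 0.117) and was 0.14 with the GC trend removed. HERPUD1, SDF2L1 and DNAJB9, which are raised in ER stress, had log2 fold changes of 0.33, 0.48 and 0.13 without passing, and the disulfide isomerase PDIA4 was at -0.05.

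Genes of the same pathways outside the 41 were taken from lists of 30 each. Of 30 other integrated stress response genes, 27 could be tested, 2 rose (7.41%, against 9.02% of all genes), 3 fell (11.1%, against 11.0%) and 22 did not pass. The median log2 fold change was -0.07, and both shares were close to those of all genes. ATF3, a stress factor that ATF4 induces, had 8.18 and 7.57 CPM without IFNγ and 23.0 and 29.6 CPM with it, a log2 fold change of 1.73 (adjusted p = 0.00235, edgeR). JDP2, which binds the same kind of site as ATF3, had 8.86 and 8.83 CPM and then 19.5 and 21.6 CPM (log2 fold change 1.21, adjusted p = 0.0046). Both stood well clear of their controls. KLHL24, which is known as an ATF4 target, fell from 172 and 184 CPM to 24.0 and 24.2 CPM, a log2 fold change of -2.89 (adjusted p = 6.98e-05) that was larger in size than that of any of the 41. The mitochondrial folate enzyme MTHFD1L (-0.76) and the tRNA exporter XPOT (-0.68) also fell, though MTHFD1L did not pass without unstimulated replicate 2 (adjusted p = 0.0659) and XPOT did not with the GC trend removed (adjusted p = 0.167). EIF2AK2 (PKR), the eIF2 kinase that double-stranded RNA activates and a known interferon-induced gene, had 114 and 124 CPM and then 104 and 88.7 CPM at 3 h, which did not pass (-0.30, adjusted p = 0.14). With the GC trend removed its value was 0.24 (adjusted p = 0.239), and with the replicate block added 0.25, which passed (adjusted p = 0.0405).

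Of 30 other ER unfolded protein response genes, all were tested, 3 rose (10%, against 9.02% of all genes), 2 fell (6.67%, against 11.0%) and 25 did not pass. The median log2 fold change was 0.09. None rose by a log2 fold change above 1, by edgeR or by DESeq2. By edgeR, 8 of the 30 had an unadjusted p under 0.05, 5 higher and 3 lower, beside 5239 of all 14820 tested genes. WFS1 (wolframin), an ER membrane protein, had the highest change of the list at 0.93, with 33.1 and 30.5 CPM and then 58.7 and 63.0 CPM (adjusted p = 0.0045). The degradation factors DERL2 (0.59) and DERL1 (0.51) rose as well, but DERL1 did not pass with any 1 library left out (adjusted p from 0.053 to 0.152), and DERL2 not without IFNγ replicate 2 (0.0706) or unstimulated replicate 1 (0.109). HSPA5 (BiP), the main ER chaperone, had 779 and 924 CPM and then 1074 and 1171 CPM. The groups did not overlap, and the log2 fold change of 0.40 had an adjusted p of 0.0608 with edgeR and 0.0323 with DESeq2. With a replicate block in edgeR its adjusted p was 0.00176. With the GC trend removed (edgeR), HSPA5 (0.60, adjusted p = 0.0264), DERL2 (0.98, 0.00344), DERL1 (0.75, 0.00932), WFS1 (0.71, 0.011), DNAJB11 (0.71, 0.02) and SSR1 (0.63, 0.0342) rose. EDEM3 was the only gene of the list that fell in that fit, where 9.23% of all tested genes rose and 6.24% fell. EDEM3, a mannosidase of ER degradation, fell from 48.2 and 53.9 CPM to 27.4 and 22.5 CPM (log2 fold change -1.02, adjusted p = 0.0056), and was at -0.52 with the GC trend removed. MBTPS2, a protease that activates ATF6, fell by 0.48 (adjusted p = 0.0482), did not pass by DESeq2 (0.0528) or without IFNγ replicate 1 (0.121) or unstimulated replicate 2 (0.229), and was at 0.09 with the GC trend removed.

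**Figure D3:**
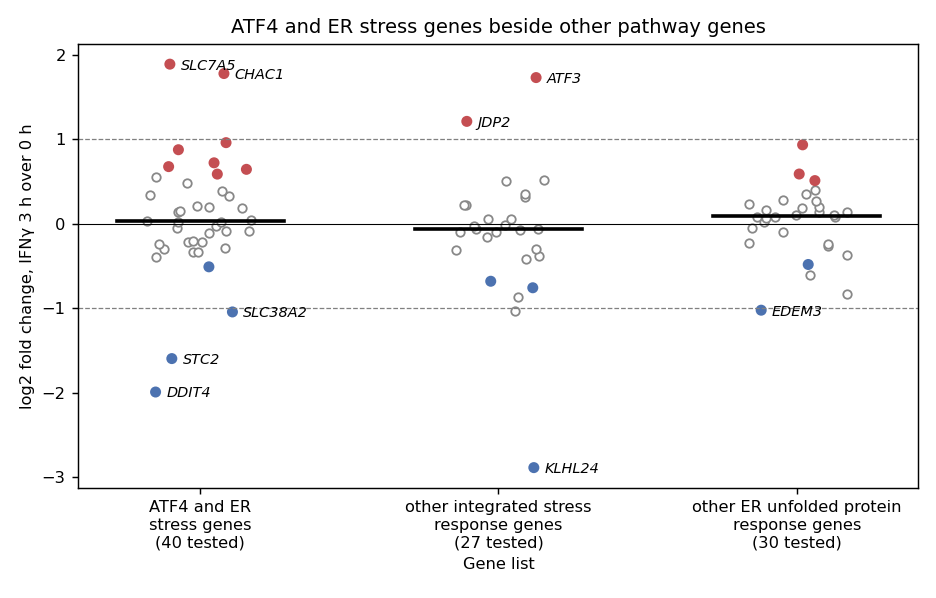
Log2 fold change (IFNγ 3 h against unstimulated, y axis) of the 40 ATF4 and ER stress genes beside 27 other integrated stress response genes and 30 other ER unfolded protein response genes, 1 point per gene, filled for an adjusted p under 0.05, with a line at the median. The medians lie at 0.03, -0.07 and 0.09, and KLHL24 (-2.89) is the lowest point.

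Across all genes the log2 fold change followed the GC content of transcripts, with a Spearman rho of 0.43 over 14518 genes. GC content and length were those of the longest annotated transcript of each gene, which need not be the one expressed. Genes are not independent replicates, and this is a description. Among the 40 genes the Spearman rho was 0.52 and Pearson's r 0.40. SLC7A5 (61.2% GC), CHAC1 (61.3%), SLC1A5 (61.3%), ATF5 (59.7%) and CEBPB (66.2%) were GC-rich and rose, while SLC38A2 (37.4%) and SEL1L (39.3%) were GC-poor and fell. DDIT4 (58.1%) fell although it was GC-rich, and XBP1 (41.5%) rose although it was GC-poor. STC2 (50.1%), which fell, and SLC3A2 (53.8%) and SLC7A1 (52.7%), which rose, were above the median of 47.9% over all tested genes. With the trend with GC content and length removed, the calls over all genes went from 427 higher and 652 lower to 430 higher and 305 lower. SLC7A5 (1.68, adjusted p = 0.000261), CHAC1 (1.54, adjusted p = 0.0203), DDIT4 (-2.21, adjusted p = 4.6e-05) and STC2 (-1.67, adjusted p = 0.000247) still passed both thresholds. ATF5 (0.73), SLC3A2 (0.54), SLC7A1 (0.85) and XBP1 (0.90) still rose, SLC1A5 was at 0.35 without passing (adjusted p = 0.161), and DNAJB9, a co-chaperone of BiP, rose by 0.57 (adjusted p = 0.0398). The 2 were removed together, and the part of GC content or of length in these differences was not tested.

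**Figure D4:**
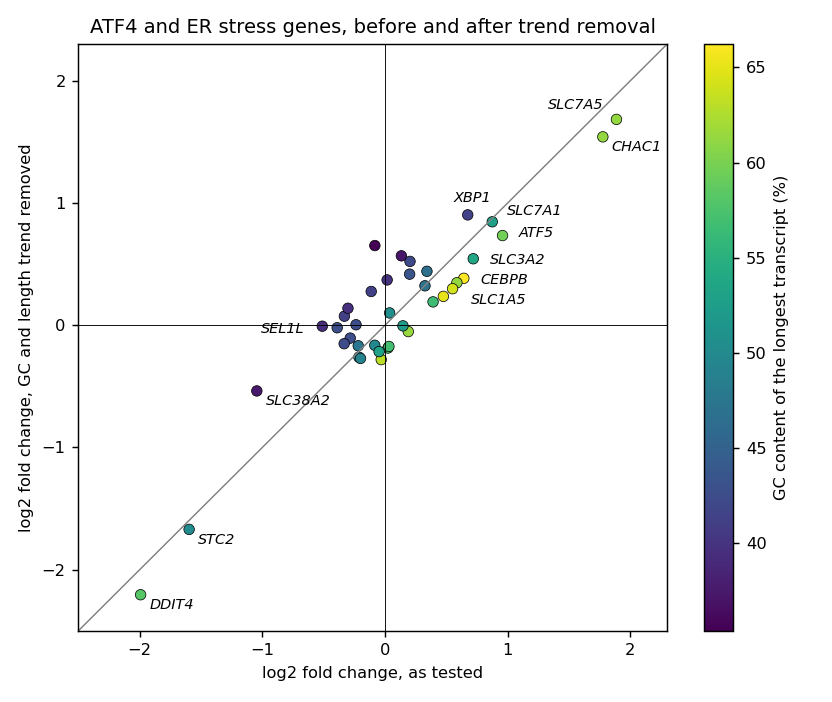
Log2 fold change of the 40 genes as fitted (x axis) and with the trend with transcript GC content and length removed (y axis), with the line of equality and the color of each point showing GC content (%). SLC7A5, CHAC1, DDIT4 and STC2 stay near the line, while SLC38A2 moves from -1.05 to -0.54 and SEL1L from -0.51 to -0.01.

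The 12 genes that passed were checked for genes that share their exons, and 4 had such a neighbor, 3 of them with a row in the table. ATF5 shares sequence with NUP62 (log2 fold change 0.39, adjusted p = 0.0645) and with IL4I1, which had at most 6 reads in any library. SLC7A5 shares sequence with an unnamed gene of at most 1 read. How reads were assigned to strands is not given in the sources used here, so reads of such overlaps cannot be told apart. The remaining 8, among them CHAC1, DDIT4, STC2, SLC38A2, SLC3A2, SLC7A1 and XBP1, had no exon overlap.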

How the data were processed

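Deposited files held raw counts, whole numbers of reads per Ensembl gene, which the authors made from TruSeq libraries of Caco-2 RNA. The submitters' processing notes name HISAT 0.5.1 and HTSeq 0.6.1p1. Aligner options, genome build and strand handling are not given in the sources used here. Of the 37515 rows, 96.5% matched a symbol in GENCODE 44 on GRCh37, which also gave positions, GC content and overlaps.

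Counts of 4 libraries were fitted with edgeR 4.0.16 (R 4.3.3, TMM scaling, default filter, quasi-likelihood test, group as the only term). P-values were adjusted by the Benjamini-Hochberg method over all 14820 tested genes. Genes rose or fell at an adjusted p under 0.05, and calls with a size limit also needed a log2 fold change above 1 in size. The text names all 41 genes, and of the other lists those past both thresholds, ATF3, EIF2AK2 and HSPA5. MTHFD1L, XPOT, WFS1, DERL1, DERL2 and MBTPS2, past the p threshold alone, were named after their values were seen, as were the other genes outside the lists. DNAJB11 and SSR1 were named for passing with the GC trend removed, also after their values were seen. Members and lists were chosen with earlier results of these data known. Alternatives were DESeq2 1.42.0, other scalings and filters, a replicate block, each library left out, and removal of the GC and length trend (loess in R, span 0.5). Depth ranged from 7171455 to 10365346 reads, and the precision of genes with few reads is limited by it. The model was tested on simulated data. An overlap result for 1 of the genes is not reported here.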

Additional observations from a re-analysis of the deposited data

How the results depend on the processing

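DDIT4, STC2 and SLC7A5 passed both thresholds in all 15 fits, CHAC1 in 14 and SLC38A2 in 11. Over 54 named genes, 656 of 755 alternative values kept direction and side of the threshold, 33 lost the call, 24 gained it and 42 changed sign, and the genes that changed sign were all below a log2 fold change of 0.5 in size as first fitted. Genes of the 41 called higher numbered 1 at an adjusted p under 0.01 and 1 to 3 with a library left out. Those past the p threshold numbered 4 to 9 higher with a library left out, the 4 without unstimulated replicate 1. Among the fits with a library left out, higher calls over all tested genes were also fewest without unstimulated replicate 1. The count of 4 was therefore not shown to be particular to the 41 genes. The median of 0.03 for the tested genes of the 41 became 0.119 with the GC trend removed and 0.121 with the block as well. It ran from -0.052 to 0.146 with a library left out. Same-numbered libraries deviated together (r = 0.415 over genes), but no label ties them to a shared culture or day. The fit with the replicate block had 10 higher and 7 lower, adding ATF4 and HERPUD1 above and ALDH18A1, SLC38A1 and HSP90B1 below. Of all tested genes, 17.5% were higher and 19.5% lower in that fit. With the GC trend removed too, 13 were higher and 5 lower, beside 19.8% and 15.9% of all tested genes. Those 13 included CEBPG, PPP1R15B, MTHFD2, SLC7A11, HERPUD1 and DNAJB9, and the 5 included ALDH18A1 and PDIA4, while CEBPB and SEL1L did not pass. Other integrated stress response genes called lower were 2 without a filter and 2 with the block (1 to 2 with a library left out), and other ER genes called lower were 0 with upper quartile scaling, 0 with the GC trend removed and 0 with the block added (0 to 1 with a library left out). Across all genes, higher calls were 39.6% of calls, 58.5% with the GC trend removed, and 27.3% (417 higher, 1112 lower) without IFNγ replicate 1.

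Signs changed with the GC trend removed, and with the block added, for ATF6 (0.28 and 0.28), EIF2AK2 (0.24 and 0.25), PPP1R15A (-0.19 and -0.19), TRIB3 (-0.0525 and -0.0496), PHGDH (-0.00555 and -0.00551), SHMT2 (-0.17 and -0.17), SLC7A11 (0.65 and 0.66), SLC38A1 (0.0734 and 0.0725), HSP90B1 (0.14 and 0.14), MBTPS2 (0.0935 and 0.0901) and, without the block, EIF2AK3 (0.00334). Scaled by library size only, signs changed for ERN1 (-0.00596), CEBPG (-0.025), PPP1R15A (-0.0197) and SHMT2 (-0.0101), and with upper quartile scaling for PYCR1 (0.0132). With a library left out, the sign changed within the range of values for ERN1 (-0.155 to 0.166), CEBPG (-0.0495 to 0.0972), PPP1R15A (-0.18 to 0.19), PSPH (-0.232 to 0.0311), SHMT2 (-0.0551 to 0.134), PYCR1 (-0.20 to 0.16), SLC7A11 (-0.30 to 0.16), DNAJB9 (-0.037 to 0.267) and PDIA4 (-0.179 to 0.0736). The causes were not tested. The fit without a filter had no finite prior degrees of freedom. CHAC1 and SLC1A4, with the fewest reads, had the widest intervals.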
